A study of Mus musculus with 74 samples.

Results

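Open chromatin of white adipocytes was compared between Zeitgeber time (ZT) 9 and ZT13. Zeitgeber time counts hours from lights on, and by the usual convention lights go off between these 2 times; the labels give no light schedule. The libraries were chosen by their labelled depot, assay and time, and are 6 of the 74 in the series: 3 at ZT9 and 3 at ZT13. Their values were read at 25050 deposited accessible regions, across all of which each test was run.

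Every group carried the Adiponectin-Cre:NuTRAP alleles, and no mice without them were used here. In this strain the adiponectin promoter, which is active in mature adipocytes, drives Cre, and Cre switches on a reporter that tags nuclei and ribosomes. Nuclei came from frozen inguinal white adipose tissue (WAT) by flow sorting and were processed by Omni-ATAC, in which a transposase cuts accessible DNA and the cut sites are sequenced. The same 6 times, ZT1, ZT5, ZT9, ZT13, ZT17 and ZT21, were sampled in brown adipose tissue (BAT) and for ribosome-bound RNA of the same strain, and BMAL1 was mapped by chromatin immunoprecipitation. The labels state no age, sex, diet or feeding schedule for these libraries. They do not say whether a replicate was 1 mouse or a pool, so each p-value below measures only the spread between these libraries, which may be technical.

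White adipocytes store triglyceride after meals and release fatty acids between them, under the control of insulin, catecholamines, glucocorticoids and the circadian clock. In the clock, BMAL1 and CLOCK drive the Per, Cry, Nr1d and Dbp genes, whose products act back on BMAL1 and CLOCK or on their shared targets. ATAC signal at a promoter or enhancer reports how readily the transposase reaches the DNA there. It does not report which factor is bound or how much RNA is made, and in the deposited annotation a distal region bears the name of the gene with the nearest start site, which need not be the gene it acts on.

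The 4 promoter regions printed here are discussed below and were chosen after their values were seen. Nr1d1 encodes the clock repressor REV-ERB alpha, Srebf2 the transcription factor that drives cholesterol synthesis genes, Txnip a thioredoxin-binding inhibitor of glucose uptake, and Fasn fatty acid synthase. Each sequence is the part of the accessible region that lies before the start site, taken from RefSeq on GRCm38.p6 (the mm10 assembly) and written 5′ to 3′ along the gene. Capitals mark CCAAT (the NF-Y box, also as its reverse complement ATTGG) and GGGCGG (a GC box of SP and KLF factors, either strand).
Nr1d1 promoter, chr11:98775378-98775524, minus strand: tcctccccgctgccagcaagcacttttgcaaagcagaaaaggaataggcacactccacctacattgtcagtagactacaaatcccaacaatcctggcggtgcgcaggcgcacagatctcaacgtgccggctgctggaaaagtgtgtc
Srebf2 promoter, chr15:82147021-82147171, plus strand: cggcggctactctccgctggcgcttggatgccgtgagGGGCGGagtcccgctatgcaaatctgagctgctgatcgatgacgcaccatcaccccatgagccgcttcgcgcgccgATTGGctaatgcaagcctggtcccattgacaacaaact
Txnip promoter, chr3:96557787-96557937, plus strand: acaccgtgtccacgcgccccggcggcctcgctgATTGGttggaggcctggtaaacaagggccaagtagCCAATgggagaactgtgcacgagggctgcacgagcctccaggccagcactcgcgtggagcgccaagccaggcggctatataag
Fasn promoter, chr11:120824555-120824705, minus strand: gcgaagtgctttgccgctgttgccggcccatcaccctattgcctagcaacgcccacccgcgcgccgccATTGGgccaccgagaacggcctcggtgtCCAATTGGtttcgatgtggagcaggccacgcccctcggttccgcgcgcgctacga
Txnip held 2 CCAAT boxes, Fasn 3 of which a pair overlap as CCAATTGG, and Srebf2 1 CCAAT box and 1 GGGCGG. Neither these letters nor the E-box CACGTG, which BMAL1 binds, nor the ROR and REV-ERB element TAGGTCA occurred in the printed Nr1d1 stretch. Of 3840 promoter parts matched in this way, 39.6% held CCAAT, 63.1% GGGCGG, 6.09% CACGTG and 0.651% TAGGTCA. Among the 64 of them with p under 0.05 and more signal at ZT13 the share with CCAAT was 35.9%, and among the 110 with less signal 39.1%.

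The ZT9 libraries held 2295203, 5294923 and 1815864 tags in the regions for replicates 1, 2 and 3, and the ZT13 libraries 3806985, 4000601 and 2332913. Depth was therefore unequal within ZT9, where replicate 2 was the deepest of all 18 WAT libraries and replicate 3 among the shallowest (range over the 18: 1623006 to 5294923). Promoters took 48.7% to 49.3% of tags at ZT9 and 48.5% to 48.8% at ZT13 (exact two-sided permutation test, p = 0.2, where 3 against 3 libraries can go no lower than 0.1). Of the adipocyte markers, 7 of 8 genes had regions within 10 kb, 18 in all, with a summed level of 1082 to 1171 CPM (tags scaled to a common library size) at ZT9 and 1163 to 1228 at ZT13 (exact permutation p = 0.2). Endothelial, macrophage and mammary epithelial markers had 0 regions within 10 kb, and fibroblast markers had 2, summing to 39.0 to 45.6 CPM at ZT9 and 43.0 to 57.5 at ZT13. The 3 skeletal muscle marker regions summed to 196 to 205 CPM at ZT9 and 175 to 189 at ZT13. Schwann cell markers had 7 regions, summing to 172.9 to 198.7 CPM at ZT9 and 191.5 to 221.5 at ZT13. Mural and smooth muscle markers had 4, at 124.6 to 139.2 and 121.5 to 146 CPM. Lymphocyte markers had 1, at 23.7 to 30.8 and 19.4 to 33.7 CPM. In bulk nuclei a change in cell makeup and a change within each cell cannot be told apart.

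ZT9 replicate 2 stood apart from its group. Over all regions its log2 CPM correlated at 0.927 to 0.951 with the 3 ZT13 libraries and at 0.897 to 0.911 with the other ZT9 libraries. The points of these correlations are the same regions, which share base composition. The libraries differed in depth, as given above, and the part of depth in these correlations was not tested. Where leaving it out brought a call at a region described below, the value without it is given too. The library was singled out after its values were seen, and values that brought no call are left out. Those adjusted p-values show how far the calls depend on this library and are no added evidence of a change.

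No region was called open or closed between ZT9 and ZT13. edgeR's quasi-likelihood test called 0 of 25050 regions at a Benjamini-Hochberg adjusted p under 0.05 (0%), the smallest adjusted p being 0.249, and DESeq2 also called 0. At an unadjusted p under 0.05 the test gave 2014 regions (8.04%), 1004 with more signal at ZT13 (4.01%) and 1010 with less (4.03%). The 3 ZT13 values lay wholly above the 3 ZT9 values in 1766 regions (7.05%) and wholly below in 1699 (6.78%).

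The fit set narrow bounds on most regions. The median size of a difference was 0.11 on the log2 scale, the median half-width of the 95% confidence interval was 0.33, and for 19077 regions (76.2%) the whole interval lay within 1.5-fold in either direction. For 24292 regions (97.0%) it lay within 2-fold. On counts simulated at this depth and spread, with 100 regions changed 1.5-fold and 100 changed 2-fold, the test called 44% and 84% of them, with 14 calls among unchanged regions. This and the later simulations drew each region or gene independently. A shift shared by many regions of a library, as in ZT9 replicate 2, was not part of them, so they may overstate what the test recovers. Leaving out ZT9 replicate 2 brought 86 calls, 9 with more signal at ZT13 and 77 with less; leaving out any other of the 6 libraries brought 0.

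The neighbouring 4 h steps, tested in the same fit, differed widely in their number of calls. From ZT5 to ZT9 there were 27 called regions (26 more open, 1 less) and from ZT13 to ZT17 15 (9 and 6). The steps of the other part of the day gave 1559 calls from ZT1 to ZT5, 974 from ZT17 to ZT21 and 1586 from ZT21 to ZT1, the step that by the usual convention spans lights on. Adjacent steps share 3 libraries, and a count of calls past a threshold is not a test of the difference between steps, which is given further on.

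**Figure D1:**
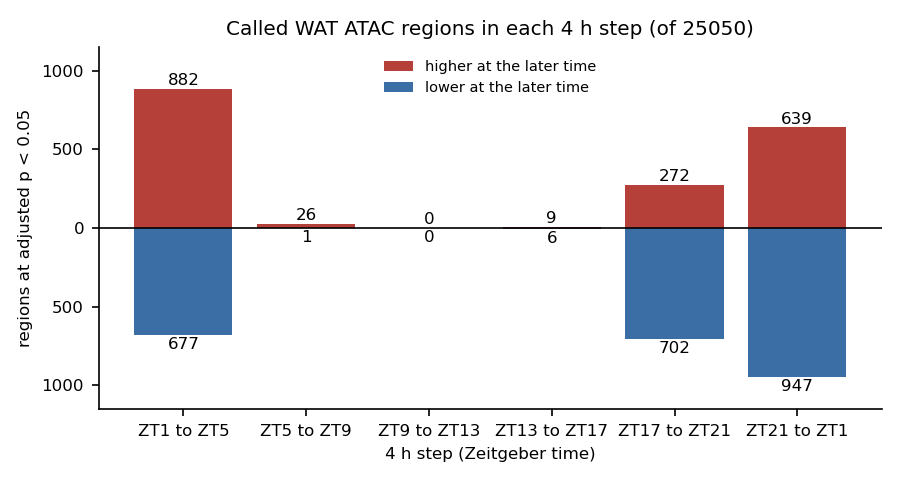
Number of WAT ATAC regions called in each 4 h step around the day (horizontal axis, Zeitgeber time), drawn upwards where signal was higher at the later time and downwards where it was lower. The step from ZT9 to ZT13 has 0 in both directions, between steps with 27 and 15 calls, and the step from ZT21 to ZT1 has 639 and 947.

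The regions of smallest p are described as values that did not pass the test. Levels are CPM after TMM scaling, differences are log2 ZT13 minus ZT9 with the standard error, and positions are base pairs from the named gene's start site, negative when upstream. Among those with less signal at ZT13, a region in the first intron of Glul, which encodes glutamine synthetase, held 61.0, 47.8 and 51.7 CPM at ZT9 and 35.3, 37.0 and 32.4 at ZT13. All 3 ZT13 libraries lay below all 3 ZT9 libraries, and the difference was -0.59 ± 0.12 (edgeR adjusted p = 0.25), at chr1:153901485-153901635 (mm10, as are all positions here). Without ZT9 replicate 2 the region was called (-0.69, edgeR adjusted p = 0.0366). Glul RNA had a mean of 430 CPM at ZT9 and 557 at ZT13 (log2 0.37 ± 0.35, edgeR adjusted p = 1).

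An intergenic region at -4466 of Trf, which encodes the plasma iron carrier transferrin, held 60.1, 36.0 and 54.5 CPM at ZT9. At ZT13 it held 23.5, 22.6 and 22.2, so the ZT13 libraries were close together and all lower (-1.07 ± 0.22, edgeR adjusted p = 0.25, chr9:103234677-103234827). Of the other 3 Trf regions the one at -512 differed by -0.48 ± 0.19 with groups that did not overlap (40.8, 33.0 and 37.4 against 23.5, 27.6 and 27.8 CPM). Those at -3988 and -61, the latter at the start site, differed by -0.30 ± 0.19 and -0.17 ± 0.16, and their groups overlapped. Without ZT9 replicate 2 the region at -4466 was called (-1.33, edgeR adjusted p = 0.0366).

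Trf also had the smallest p of 12703 genes in ribosome-bound RNA, a readout from other libraries. Its RNA stood at 385, 436 and 245 CPM at ZT9 and at 81.5, 125 and 135 at ZT13, groups that did not overlap. The log2 difference was -1.64 ± 0.31 with a 95% confidence interval of -2.27 to -1.01 (edgeR adjusted p = 0.222). That call changed with the method: DESeq2 gave an adjusted p of 6.18e-05, edgeR without the filter on low counts 0.0147, and edgeR without ZT9 replicate 3 0.0366. The region and the gene were read together after both values had been seen. They were not alike at ZT5 and ZT21. The region at -4466 held 60.8, 71.4 and 40.2 CPM at ZT5 and 63.3, 79.3 and 42.7 at ZT21, levels like those of ZT9. Trf RNA stood at 143, 136 and 147 CPM at ZT5 and at 141, 173 and 152 at ZT21, below its ZT9 values.

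A region at -7404 of Mir34a, a microRNA gene induced by p53, held 54.9, 39.0 and 45.7 CPM at ZT9 against 19.9, 16.9 and 23.9 at ZT13 (-1.20 ± 0.25). In BAT the overlapping region had a mean of 19.7 CPM at ZT9 and 10.6 at ZT13 (-0.89 ± 0.24, edgeR adjusted p = 0.118). In the first intron of Antxr1, which encodes a cell-surface receptor for collagen and for anthrax toxin, the values were 23.7, 22.7 and 30.3 CPM against 11.8, 9.94 and 10.2 (-1.23 ± 0.26). The BAT means there were 16.7 and 8.66 CPM (-0.92 ± 0.24). In both regions every ZT13 library was under every ZT9 library in WAT. The fifth, at -105334 of the predicted gene Gm8579, differed by -0.81 ± 0.16 and also had groups that did not overlap. Without ZT9 replicate 2 these 3 regions were called in edgeR, at -1.34 (adjusted p = 0.039) for Mir34a, -1.32 (0.0491) for Antxr1 and -1.04 (0.0243) for Gm8579.

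The 5 regions of smallest p with more signal at ZT13 differed by 0.71 to 0.88 on the log2 scale, and in each the 3 ZT13 libraries were above the 3 ZT9 libraries. In the region at -3558 of Trim7, which encodes a ubiquitin ligase that binds glycogenin, the values were 17.6, 18.2 and 16.5 CPM at ZT9. They were 28.2, 26.8 and 38.4 at ZT13 (0.80 ± 0.16, edgeR adjusted p = 0.249), and the BAT region went from a mean of 15.4 to 22.7 CPM (0.58 ± 0.14, edgeR adjusted p = 0.0787). Near Mir365-2, a microRNA gene, a region at -3383 held 26.3, 25.3 and 22.6 CPM against 49.1, 33.5 and 39.3 (0.71 ± 0.15). The remaining ones lay in introns of Adgrl3, a latrophilin adhesion receptor, at 547403 bp (0.88 ± 0.18), in an intron of the uncharacterised A230009B12Rik (0.73 ± 0.16) and 81265 bp from Mir6349 (0.80 ± 0.18). Of these 5, only the A230009B12Rik region was called without ZT9 replicate 2 (0.88, edgeR adjusted p = 0.0491).

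**Figure D2:**
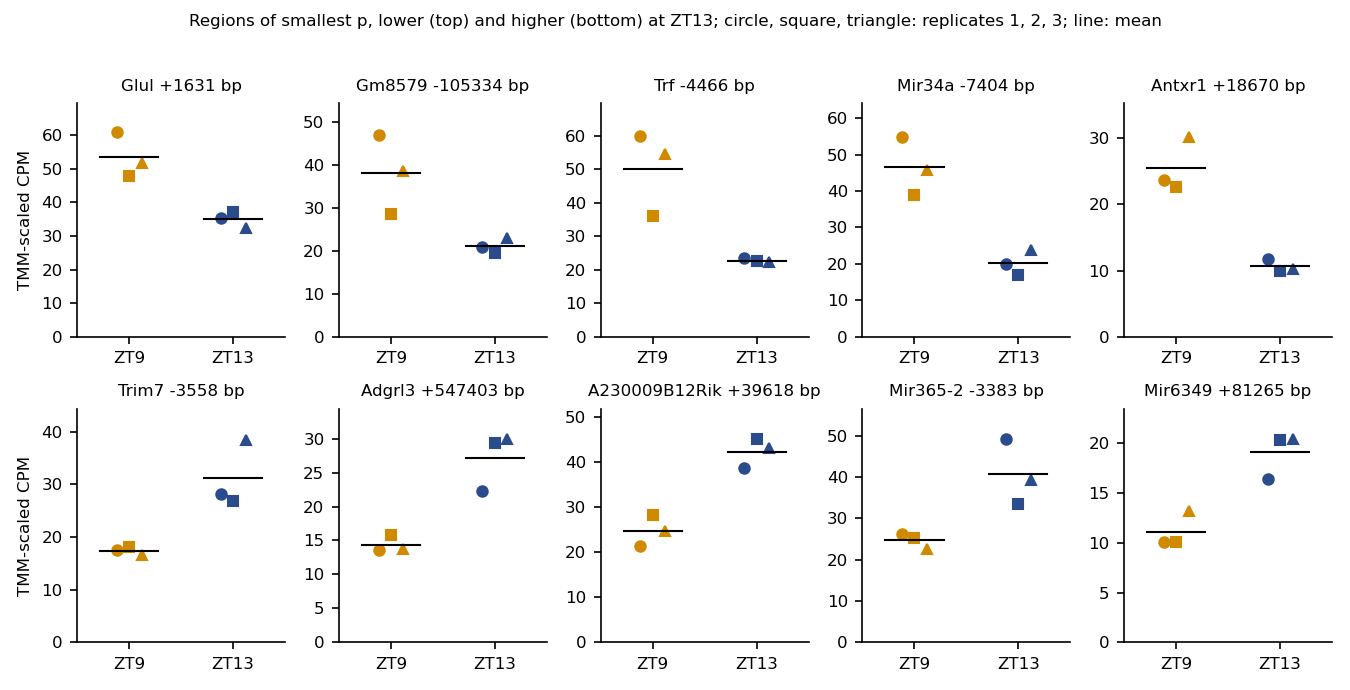
ATAC signal (TMM-scaled CPM, vertical axis from 0) in the 3 ZT9 and 3 ZT13 libraries for the 5 regions of smallest p in each direction, with the replicate shown by the marker and the mean by a line. The groups do not overlap in any of the 10. ZT9 replicate 2 (square) is the lowest ZT9 point in every region of the top row, in the Trf region at 36.0 against 60.1 and 54.5.

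Large differences went one way. A fitted difference beyond 2-fold was found in 142 regions, in each of them with less signal at ZT13, and in 0 regions with more; the largest difference upwards was 0.88 on the log2 scale. Of the 142, 68 were intronic, 66 intergenic and 1 at a promoter, where all 25050 regions held 7676, 6485 and 9463. Within 10 kb of a start site lay 41 of the 142. In 100 of them the groups did not overlap, beside 6.78% of all regions with ZT13 wholly below. The Trf region at -4466 and the Mir34a and Antxr1 regions described above belong to the set. The set was chosen by the difference itself, so these counts describe it and test nothing.

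The ZT9 libraries did not share these high values. In all 142 regions replicate 2 was the lowest ZT9 library, against 30.9% of all regions. Replicate 1 was a median 2.89 times and replicate 3 a median 2.28 times replicate 2, while the ZT13 mean was 0.767 times replicate 2. The region 43344 bp downstream of the start of Ky, a muscle gene, held 29.4, 7.13 and 35.8 CPM at ZT9 and 3.92, 3.23 and 4.27 at ZT13 (-2.52 ± 0.68). Here replicate 2 lay nearer to the ZT13 libraries than to the other ZT9 libraries, although the groups did not overlap; without replicate 2 the region was called (-3.10, edgeR adjusted p = 0.0385). Of the 77 regions with less signal that were called without ZT9 replicate 2, 49 were among the 142.

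Regions of 2 genes, picked after their values were seen, are given as examples. Abhd5, the co-activator of the lipase that starts triglyceride breakdown, had 2 intronic regions in the set: one at 1929 bp with 73.3, 18.4 and 36.3 CPM at ZT9 against 9.67, 10.7 and 10.7 at ZT13 (-1.95 ± 0.53), and one at 5709 bp (-1.29 ± 0.43). The Abhd5 start site itself held 90.0, 57.8 and 67.7 CPM against 64.8, 63.6 and 64.0, with overlapping groups (-0.12 ± 0.12). Near B4galt1, a galactosyltransferase gene, a region at -15837 held 71.5, 11.2 and 52.3 CPM against 10.2, 5.71 and 7.26 (-2.42 ± 0.70). Without ZT9 replicate 2 edgeR called the Abhd5 regions at 1929 bp (-2.43, adjusted p = 0.0429) and 5709 bp (-1.82, adjusted p = 0.0388) and the B4galt1 region (adjusted p = 0.0429). In these regions of both genes too the second ZT9 library held the lowest ZT9 value, and mean Abhd5 RNA was 42.3 CPM at ZT9 and 52.8 at ZT13.

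The same regions were high in some libraries and low in others at 4 of the 6 times. Their summed level was 6655, 2364 and 5261 CPM at ZT9 and 1885, 1752 and 1684 at ZT13. It was 5127, 7389 and 2780 at ZT5, 4307, 2133 and 1966 at ZT17 and 6673, 6281 and 1850 at ZT21. At ZT1 the 3 libraries were close, at 2599, 1830 and 2295, so within-time spread was wide at ZT5, ZT9, ZT17 and ZT21 and narrow at ZT13 and ZT1.

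In BAT, where 87 of the 142 overlapped a region, the same replicate numbers were high. The BAT median over the 87 was 26.8, 11.7 and 20.3 CPM at ZT9 for replicates 1, 2 and 3, and 9.43, 9.19 and 8.56 at ZT13. At ZT21 it was 31.2, 26.0 and 9.96, and at ZT5 26.2, 32.4 and 12.6. The replicate number with the highest median was the same in both depots at 6 of 6 times, and that with the lowest at 4 of 6. The labels do not say that a number marks the same mouse in both depots, and over all shared regions the deviations of same-numbered libraries correlated over 0.1 in 11 of 18 pairs (range -0.05 to 0.52). Whether mice, handling or nuclei differed between these libraries was not tested.

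**Figure D3:**
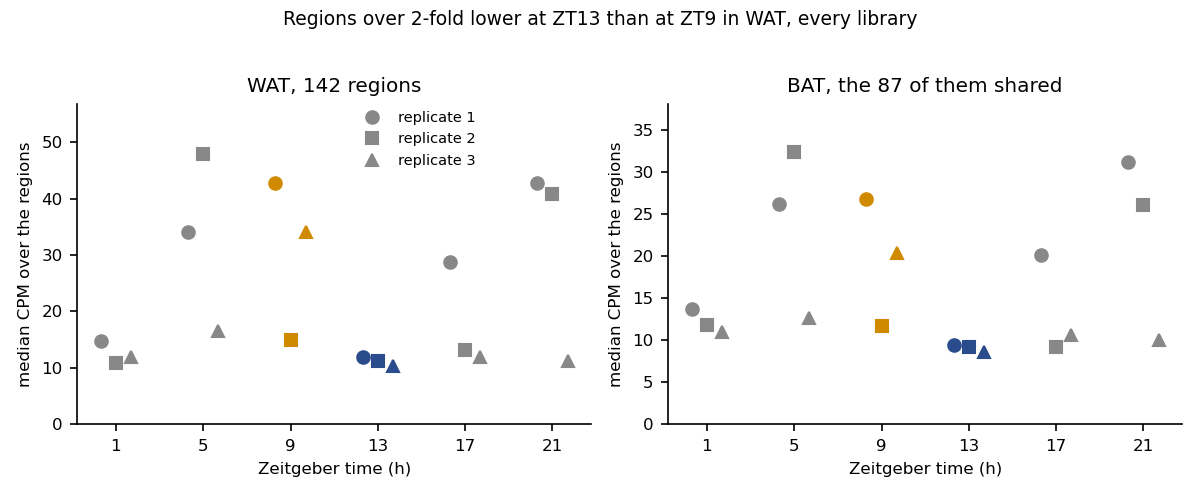
Median CPM in every library (vertical axis) by Zeitgeber time (horizontal axis) over the regions more than 2-fold lower at ZT13 in WAT: 142 regions in WAT on the left, the 87 shared ones in BAT on the right. Markers give the replicate number; in both depots ZT9 replicate 2 (15.0 CPM in WAT, 11.7 in BAT) lies near the ZT13 libraries, and the libraries of ZT5, ZT17 and ZT21 also split.

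At clock gene promoters the differences were small. Of 17 clock genes with a region within 1 kb of the start site, 0 had a called region in edgeR or DESeq2, and fitted differences of the strongest such region in the genes named here ran from -0.26 to 0.23. The lowest was the Nr1d1 promoter printed above, with 72.4, 69.2 and 70.4 CPM at ZT9 and 59.3, 63.4 and 52.9 at ZT13. All ZT13 libraries were below all ZT9 libraries (-0.26 ± 0.09, unadjusted p = 0.0128, edgeR adjusted p = 0.478). Its RNA, at 32.8 and 30.9 CPM on average, differed by -0.08 ± 0.40.

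Values also lay apart without overlap at Nfil3, a repressor of D-box genes (55.3, 55.0 and 44.6 against 65.8, 57.6 and 58.1 CPM, 0.21 ± 0.11), and at the repressor gene Bhlhe40 (109, 106 and 111 against 121, 116 and 122 CPM, 0.14 ± 0.08). At its relative Bhlhe41 the ZT13 values were the lower ones (55.7, 52.1 and 45.7 against 43.9, 44.5 and 44.8 CPM, -0.21 ± 0.18). Cry2, a repressor of BMAL1 and CLOCK, differed by 0.23 ± 0.10 with overlapping groups. The output gene Dbp held 104, 115 and 104 CPM against 104, 109 and 101, and its groups overlapped (-0.05 ± 0.08). For Arntl, which encodes BMAL1, the difference was 0.15 ± 0.11 and for Per2 0.13 ± 0.12. Clock, Per3, Cry1, Tef, Nr1d2, Rora, Hlf and Ciart differed by -0.09 to 0.05.

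Regions bound by BMAL1 at ZT4 in the deposited peak list had medians close to 0. The 5820 regions that overlapped a peak by at least 75 bp had a median difference of -0.01, with 167 (2.87%) at p under 0.05 and more signal at ZT13 and 209 (3.59%) with less, beside 4.01% and 4.03% of all regions. The 331 that overlapped one of the 500 peaks of highest score, a value given by the authors' peak caller, had a median of -0.01, with 7 (2.11%) and 17 (5.14%). By annotation, promoter regions (9463) had a median of -0.02, with 162 (1.71%) and 276 (2.92%) at p under 0.05, both under the shares of all regions. Intronic regions (7676) had a median of 0.04, with 473 (6.16%) and 321 (4.18%).

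Genes of triglyceride synthesis had the highest median of the 12 pathway lists, 0.19 over 24 regions within 10 kb of a start site, against 0.003 over all regions. Of the 24, 0 were called by edgeR, 6 (25%) had p under 0.05 with more signal at ZT13 and 1 (4.17%) with less, beside 4.01% and 4.03% of all regions. The region in the first intron of Agpat2, an acyltransferase of phosphatidate synthesis, held 32.0, 35.8 and 27.5 CPM at ZT9 and 39.7, 50.4 and 59.8 at ZT13 (0.59 ± 0.16). The promoter of Gpat3, which catalyses the first acylation of glycerol phosphate, held 27.6, 31.9 and 28.1 CPM against 40.8, 42.0 and 44.4 (0.51 ± 0.18). In both genes every ZT13 library was above every ZT9 library.

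Upstream of Dgat2, the enzyme of the last step, a region at -4902 held 22.8, 31.9 and 31.9 CPM against 45.2, 34.8 and 44.0 (0.49 ± 0.15). A region at -1500 of Gpd1, which makes glycerol phosphate, differed by 0.39 ± 0.15, and the promoter of Plin1, which coats the lipid droplet, by 0.20 ± 0.09. Another Plin1 region, at -1950, differed by 0.21 ± 0.10. Both Plin1 regions are among the 6 with more signal counted above. The exception was Mogat1, a monoacylglycerol acyltransferase, whose region at -3699 held 27.6, 19.5 and 24.8 CPM against 16.2, 14.9 and 9.82 (-0.74 ± 0.25). RNA of most of these genes did not rise with the regions, and edgeR called none of it. It differed by -0.34 ± 0.40 for Agpat2, -1.10 ± 0.54 for Gpat3, -0.59 ± 0.32 for Dgat2 and -0.30 ± 0.31 for Plin1. For Gpd1 the RNA difference was 0.07 ± 0.39, and Mogat1 RNA had means of only 1.95 CPM at ZT9 and 0.05 at ZT13. With 1 library omitted at a time the median of the 24 regions was between 0.15 and 0.24, lowest without ZT9 replicate 1. The list's summed level was 970 to 1055 CPM at ZT9 and 1116 to 1188 at ZT13, and the adipocyte marker regions, which include Plin1, moved beside it, with a median of 0.15; their part in the result was not tested.

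Of 36 regions of fatty acid synthesis genes, 4 (11.1%) had p under 0.05 with more signal at ZT13 and 1 (2.78%) with less, beside 4.01% and 4.03% of all regions, and the median was 0.05. The Fasn promoter printed above held 39.5, 50.5 and 47.3 CPM at ZT9 and 53.8, 54.2 and 69.2 at ZT13 (0.32 ± 0.14, edgeR adjusted p = 0.573). The promoter of Srebf1, the transcription factor that activates Fasn, held 30.7, 40.0 and 36.3 CPM against 47.3, 41.0 and 43.1 (0.27 ± 0.13). Thrsp, a lipogenic nuclear protein gene, had 2 regions, at -1327 (0.30 ± 0.12) and -3525 (0.33 ± 0.16). In these 4 regions the groups did not overlap. Acacb, the mitochondrial acetyl-CoA carboxylase gene, went the other way, with 25.9, 16.7 and 25.3 CPM against 12.5, 14.2 and 15.8 at -3906 (-0.63 ± 0.26).

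Lipolysis regions, 25 in all, had 3 (12%) at p under 0.05 in each direction, beside 4.01% with more and 4.03% with less signal among all regions, and a median of 0.02. The 3 with more signal all belonged to Mgll, the monoglyceride lipase, for which 5 of 8 named regions at any distance had p under 0.05, all higher at ZT13. Its region at 2406 bp held 50.9, 54.0 and 50.1 CPM at ZT9 and 69.0, 71.3 and 59.8 at ZT13 without overlap (0.37 ± 0.10). Besides both Abhd5 regions, the third with less signal was at Adrb3, the adrenergic receptor that starts lipolysis in mouse adipocytes. It held 95.2, 47.3 and 78.7 CPM against 42.8, 50.4 and 50.4, so ZT9 replicate 2 lay among the ZT13 values (-0.54 ± 0.24). RNA differed by -0.70 ± 0.48 for Mgll, 0.31 ± 0.31 for Abhd5 and 0.09 ± 0.41 for Adrb3.

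Of 34 regions of insulin and feeding response genes, 1 (2.94%) had more and 2 (5.88%) had less signal at p under 0.05, shares near the 4.01% and 4.03% of all regions; their values are given as a description. The 2 were the Txnip promoter printed above, with 96.5, 88.1 and 91.4 CPM at ZT9 against 80.2, 79.3 and 62.8 at ZT13 (-0.29 ± 0.10), and a Txnip region at -6524 (-0.91 ± 0.26). The first was a region at -9142 of Insr, the insulin receptor gene, with 25.5, 19.3 and 16.0 CPM against 27.4, 30.8 and 33.7 (0.59 ± 0.19). The groups did not overlap at any of the 3. Among 17 regions of cholesterol synthesis genes, 2 (11.8%) had more and 2 (11.8%) had less signal at p under 0.05. All regions gave 4.01% and 4.03%, and the list's median was 0.002. Of the 17, the Srebf2 promoter had the smallest p, at 71.5, 72.4 and 72.1 CPM against 59.6, 51.4 and 59.3 (-0.35 ± 0.09, unadjusted p = 0.00109, edgeR adjusted p = 0.395). The promoter of Fdft1, squalene synthase, held 95.2, 94.9 and 93.0 CPM against 82.6, 81.3 and 76.4 (-0.23 ± 0.08), and that of Idi1, which isomerises isopentenyl diphosphate, differed by 0.23 ± 0.09 in the other direction. A region at 6956 bp of Dhcr7 was also higher at ZT13 (0.26 ± 0.11), with overlapping groups.

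Of 27 regions of glucocorticoid response genes, 0 had p under 0.05 with more signal and 4 (14.8%) with less, beside 4.01% and 4.03% of all regions. Of the 4, 3 were neighbouring regions upstream of 1 gene, Klf9, a Kruppel-like factor induced by glucocorticoids. The Klf9 region at -7031 held 54.9, 51.0 and 49.0 CPM at ZT9 and 40.2, 36.3 and 41.0 at ZT13 without overlap (-0.40 ± 0.15). The fourth was the promoter of Nfkbia, an inhibitor of NF-kappa B (-0.25 ± 0.10). The list's median was nevertheless 0.02. Regions of immediate early genes (35, median -0.04), adipogenic transcription factors (36, median -0.02), adipokines (19, median 0.04), heat shock (21, median -0.02) and thermogenesis genes (13, median 0.10) had 0 to 3 regions each at p under 0.05 in either direction, beside the same shares of all regions. Among these, the promoter of Rxrg, a retinoid receptor gene, held 53.1, 55.5 and 54.5 CPM against 63.7, 65.3 and 62.3 (0.23 ± 0.10). The region at -1063 of Jun held 57.9, 49.1 and 51.7 CPM against 43.9, 42.2 and 45.3 (-0.26 ± 0.11).

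Regions that differed between ZT5 and ZT17 had small ZT13 minus ZT9 differences of the same sign on median. Between ZT5 and ZT17, times that share no library with ZT9 or ZT13, 794 regions were called higher at ZT17 (3.17%) and 342 lower (1.37%) by edgeR at adjusted p under 0.05. The 794 had a median ZT13 minus ZT9 difference of 0.21, with 671 (84.5%) above 0. The 342 had a median of -0.20, with 42 (12.3%) above 0, and the other 23914 regions had a median of 0.0005.

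At p under 0.05 from ZT9 to ZT13, 168 of the 794 had more signal and 5 less, and 0 and 87 of the 342, beside 4.01% and 4.03% of all regions. With 1 of the 6 libraries omitted at a time, the medians ran from 0.16 to 0.27 and from -0.24 to -0.18. Across the 25050 regions the 2 contrasts correlated with Pearson's r of 0.497 and Spearman's rho of 0.394, a description over regions that share depth, base composition and one estimate of scatter. The regions over 2-fold lower at ZT13 also split the ZT5 and ZT17 libraries, and their part here was not tested. The grouping by the ZT5 and ZT17 calls was added after the data were seen.

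**Figure D4:**
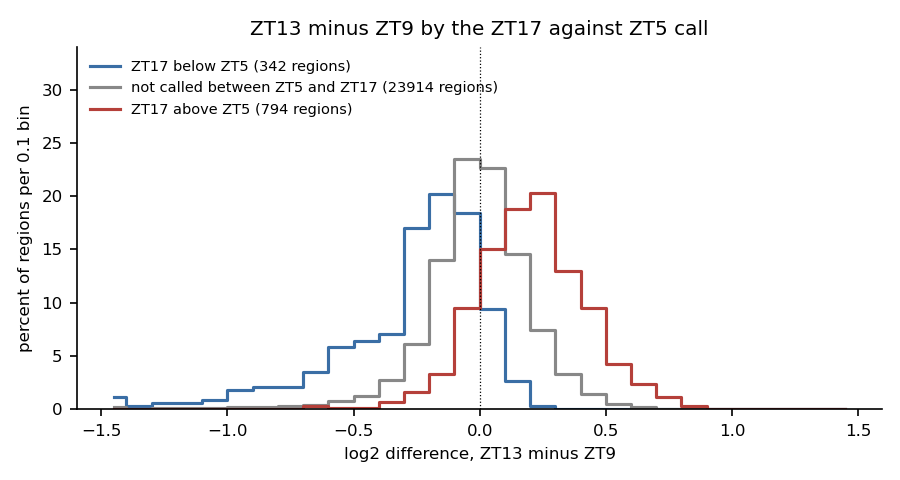
Distribution of the log2 difference ZT13 minus ZT9 (horizontal axis, bins of 0.1, values beyond the ends in the end bins) as the percent of regions in each set, for 342 regions lower and 794 higher at ZT17 than at ZT5 and the 23914 not called there. The curves of the called sets lie to the left and right of 0, with medians of -0.20 and 0.21.

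The authors' deposited table of JTK rhythm tests, made from the same libraries and so no separate evidence, gives a q under 0.05 to 2153 regions (8.59%). For the 847 of them with a phase of 0 to 10 h in the authors' deposited table, 1 had p under 0.05 with more signal at ZT13 and 103 with less, beside 4.01% and 4.03% of all regions. For the 1306 with a phase of 12 to 22 h in the authors' deposited table, the counts were 236 and 0.

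The step across lights off differed from the step across lights on. The 2 steps, ZT9 to ZT13 and ZT21 to ZT1, share no library, and edgeR called 306 regions (1.22%) in which they differed, 123 with the higher difference in the evening and 183 with the lower. That contrast was added after the data were seen, and the lights-on step alone had 1586 calls (6.33%). Leaving out ZT21 replicate 3 gave 522 calls. Leaving out ZT1 replicates 2 or 3 gave 152 or 164, ZT21 replicates 1 or 2 160 or 157, ZT9 replicate 1 196, and ZT13 replicates 1 or 3 201 or 197; without each of the other 4 libraries the count stayed within 1.5 times 306.

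The smallest p was at a region in the first intron of Thra, which encodes a thyroid hormone receptor and overlaps Nr1d1 on the opposite strand. It held 20.6, 31.2 and 22.3 CPM at ZT21 and 64.2, 61.8 and 67.1 at ZT1, then 43.4, 39.4 and 34.1 at ZT9 and 25.3, 28.3 and 23.1 at ZT13. It opened across lights on (1.32 ± 0.14) and was lower after lights off without overlap (-0.60 ± 0.15), and the steps differed by -1.92 ± 0.21 (edgeR adjusted p = 4.95e-05). The Nr1d1 promoter rose across lights on by 0.68 ± 0.10, from 44.0, 54.6 and 49.5 to 78.9, 77.7 and 83.5 CPM, and its steps differed by -0.93 ± 0.14 (edgeR adjusted p = 9.48e-04). A Bhlhe41 region at 9464 bp, under a BMAL1 peak, differed by -1.76 ± 0.30 between the steps (edgeR adjusted p = 0.00294).

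The regions near Mir34a and Mir365-2 had differences of opposite sign at the 2 steps. At Mir34a the signal went from 15.6, 16.7 and 14.2 CPM at ZT21 to 23.7, 39.1 and 65.1 at ZT1, and the steps differed by -2.61 ± 0.36 (edgeR adjusted p = 5.50e-04). At Mir365-2 it went from 53.9, 45.5 and 51.3 to 27.6, 20.7 and 25.4, and the steps differed by 1.71 ± 0.22 (edgeR adjusted p = 3.02e-04). At Glul the difference between the steps was -1.12 ± 0.17 (edgeR adjusted p = 0.00111), while the Trf region, at -0.56 ± 0.30, did not pass.

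**Figure D5:**
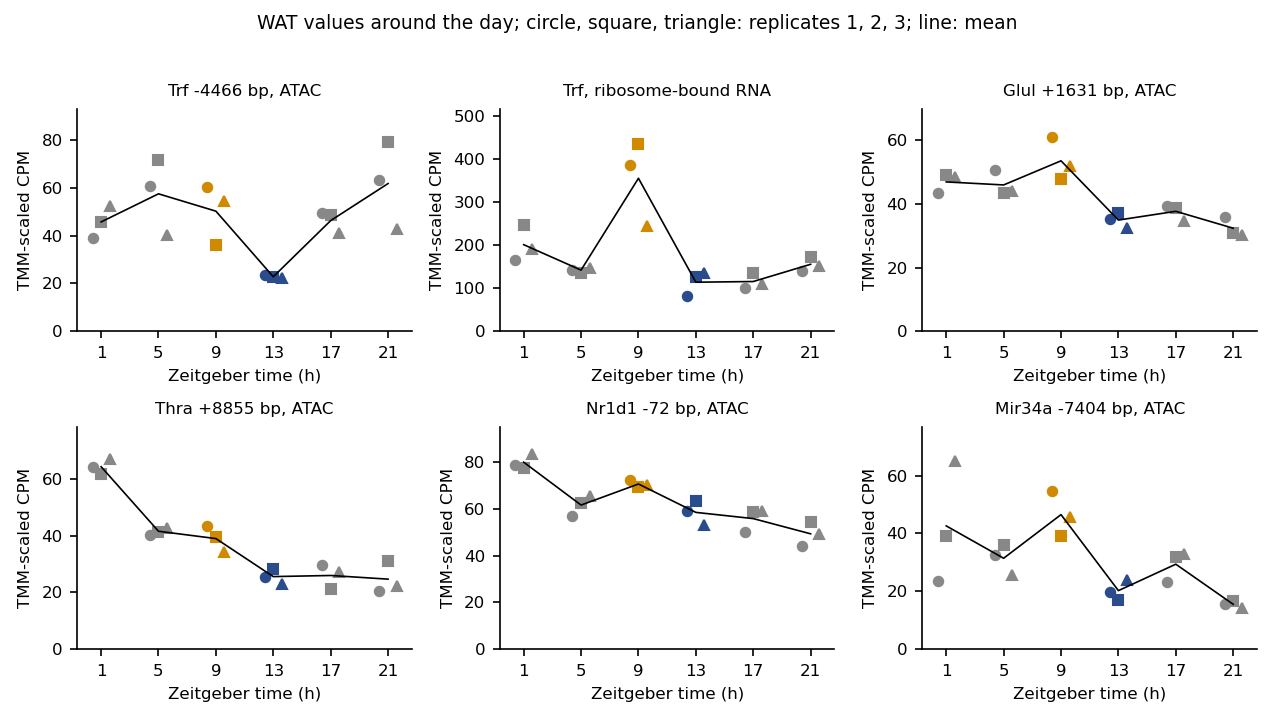
WAT signal in every library at 6 times (horizontal axis, Zeitgeber time; vertical axis, TMM-scaled CPM from 0), with the mean as a line, for the Trf region at -4466, Trf RNA, and the regions of Glul, Thra, Nr1d1 and Mir34a; ZT9 and ZT13 are coloured. Thra rises from 20.6 to 31.2 CPM at ZT21 to 61.8 to 67.1 at ZT1 and is at 23.1 to 28.3 at ZT13, and Trf RNA is at 81.5 to 135 CPM at ZT13 against 245 to 436 at ZT9.

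BAT was measured at the same times, and 21636 of the WAT regions (86.4%) overlapped a BAT region by at least 75 bp. A model over both depots called 0 regions (0%) in which the ZT13 minus ZT9 difference differed between WAT and BAT, with 948 (4.38%) at an unadjusted edgeR p under 0.05 and a smallest adjusted p of 0.546; DESeq2 was not run on that term. The simulation for this test recovered 32% of regions that differed 1.5-fold and 72% of those that differed 2-fold. At 1128 shared regions with p under 0.05 and more signal at ZT13 in BAT the WAT median was 0.16, and at 1431 with less it was -0.15. The differences in the 2 depots correlated over regions with Pearson's r of 0.529 and Spearman's rho of 0.357. The depots may share mice, which the labels do not say. Over the 87 shared regions described above the same replicate numbers were highest in both depots. The part of those regions in these correlations was not tested.

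Ribosome-bound RNA of white adipocytes gave 0 called genes of 12703 (0%) in edgeR, with 364 (2.87%) at an unadjusted p under 0.05, 96 higher and 268 lower at ZT13. DESeq2 called 3 and edgeR without the filter on low counts 19. The RNA libraries were less precise than the ATAC libraries, with a median half-width of 1.26 on the log2 scale, and on simulated counts over 12229 genes the test recovered 1% of genes changed 1.5-fold and 0% of those changed 2-fold. RNA of Myh4, a fast muscle myosin picked for its small p, was at 28.2, 23.2 and 49.7 CPM at ZT9. At ZT13 it was at 1.35, 2.25 and 4.15 (-3.61 ± 0.77, edgeR adjusted p = 0.637). Myh4 had no region within 10 kb. The lower sum of muscle marker regions given above came from 3 regions of other genes, with differences from -0.23 to 0.22. Of those 3, 1 was above 0. RNA of other muscle markers is not given here, and the part of muscle RNA in the other RNA values was not tested. Over 9516 promoter regions with RNA of their gene, the ZT13 minus ZT9 differences of ATAC and RNA correlated at -0.008 (Pearson) and -0.02 (Spearman), a description over genes with the RNA error given here.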

How the data were processed

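WAT regions, their raw tag counts in 18 libraries and their annotation were deposited by the authors, who used HOMER with mm10, per the submitters' processing notes; the sources used here do not give the ATAC aligner or how regions were called. RNA values are expected counts per gene that the authors deposited (STAR 2.7.5 and RSEM 1.3.0, per the submitters' processing notes), rounded here. The rhythm p-value and q-value of each region, and the score of each BMAL1 peak, are the authors' deposited values, used only to describe regions.

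Counts were fitted in edgeR 4.0.16 (R 4.3.3): filterByExpr, which kept all 25050 regions, TMM scaling, and a quasi-likelihood fit over 18 libraries with time as a factor. The contrast was ZT13 minus ZT9, and calls took a Benjamini-Hochberg adjusted p under 0.05. All 18 libraries share 1 estimate of spread, and the typical biological coefficient of variation was 9.70%. RNA was fitted likewise, and the depots together over 36 libraries in 12 groups. Scripts were tested on simulated data. Alternatives were edgeR's RLE factors in place of TMM, no scaling, cyclic loess (limma 3.58.1) and filters. Others were a replicate block, 6 libraries alone, DESeq2 1.42.0 and each library left out.

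As 0 regions were called, the rule named the 5 regions of smallest p in each direction, and for each clock gene its strongest region within 1 kb; other regions named were chosen after their values were seen. The comparison, the members and the gene lists were chosen with earlier results of these data known. Values of some regions are not reported here.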

Additional observations from a re-analysis of the deposited data

Results flagged for a closer look

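The 306 regions whose ZT9 to ZT13 difference differed from their ZT21 to ZT1 difference were picked out by the test of that difference itself (edgeR, adjusted p under 0.05). Regions described above are among them, and the values of 4 are given here. In these the evening difference minus the morning difference was -1.92 on the log2 scale in the Thra intron, 1.71 near Mir365-2, -2.61 near Mir34a and -0.93 at the Nr1d1 promoter. With all libraries the morning step passed its own test in these 4 regions, and the evening differences of -0.60, 0.71, -1.20 and -0.26 did not; that of Mir34a passed without ZT9 replicate 2.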

How the results depend on the processing

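The ATAC contrast gave 0 calls under RLE factors, no scaling, no filter, a stricter filter, cyclic loess, DESeq2 and the 6 libraries alone, and 0 to 86 with each library left out, 86 only without ZT9 replicate 2. Regions at an unadjusted p under 0.05 numbered 486 with a 1.5-fold minimum and 1167 to 2902 with a library left out. The replicate block gave 0 calls, 2148 regions at p under 0.05, 380 for the difference between steps, and 0 RNA calls; deviations of same-numbered ZT9 and ZT13 libraries correlated at 0.0122 to 0.0410 in ATAC and at -0.00828, 0.316 and 0.291 in RNA, so not every pair was over 0.1 in either assay, and the labels give no pairing. RNA calls were 19 without a filter, 3 in DESeq2 and 0 to 1 with a library left out. The depot term kept 0 calls with each library left out and with a block across depots, added after the data were seen. The difference between steps ran from 152 to 522 calls with a library left out. Of 39 named regions under 14 settings, 14 passed in any setting, each without ZT9 replicate 2. Signs changed at 7 clock promoters close to 0, whose differences with each library left out ran from -0.0368 to 0.0268 for Cry1, -0.0385 to 0.0113 for Tef, -0.0605 to 0.0727 for Clock, -0.164 to 0.0723 for Rora, -0.0327 to 0.186 for Hlf, -0.0851 to 0.0105 for Dbp and -0.0889 to 0.107 for Per3. Cry1 was also above 0 without scaling (9.84e-04) and Tef under cyclic loess (0.0142). The cause of these changes was not tested.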

Other observations

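Without ZT9 replicate 2, 77 regions were called lower at ZT13, and several lie near genes that the report does not name. Their edgeR differences in that fit, set beside those with all libraries, were -2.12 and -1.59 for a region 1807 bp into Pygl, the liver form of glycogen phosphorylase, and -0.82 and -0.63 for one at -1932 of Zfp36, an mRNA decay factor. For a region 24295 bp from the start of Ebf2, a transcription factor of brown and beige fat, they were -1.53 and -1.19, and at -65559 of Ghr, the growth hormone receptor gene, -1.47 and -1.07. Regions at Xbp1, a factor of the unfolded protein response, and at Sparc, a matrix protein, differed by -0.72 and -0.53 and by -0.79 and -0.62. The 9 called higher included a region near Dhrs3, a retinal reductase (1.01 and 0.52). These examples were chosen after their values were seen, and each call rests on 2 ZT9 libraries.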
